A study of Mus musculus with 4 samples.

Results

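Open chromatin was examined around 8 mouse genes of the cardiac thin filament: the troponin genes Tnnt2, Tnni1, Tnni3 and Tnnc1, the tropomyosin genes Tpm1 and Tpm2, and the sarcomeric actin genes Actc1 and Acta1. Their regions were chosen by position alone. Every ATAC-seq peak that overlapped one of these gene bodies or the 20 kb on either side was taken, and overlapping peaks of the 4 hearts were merged, which gave 62 regions of 53140 in all. Gene bodies were those of RefSeq on GRCm38.p6, and all 8 genes were matched. Tnnt2 and Tnni1 are neighbours on chromosome 1, so 2 regions between them lay in both windows and were counted once.

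ATAC-seq marks open chromatin by where the Tn5 transposase can insert. Nuclei came from whole hearts of C57BL/6 mice at postnatal day 0, with 1 heart to a library. The WT group (WT 1 and WT 2) was labelled wild type, and the edKO group (edKO 1 and edKO 2) lacked RXR alpha and RXR beta, receptors that pair with other nuclear receptors on DNA, in cardiomyocytes only. The labels do not name the Cre driver, the other cells of an edKO heart keep both receptors, and the genotypes were not checked against the deleted exons. In whole hearts, fewer nuclei of a cell type and less open chromatin per nucleus cannot be told apart.

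In the thin filament, actin forms the track on which myosin pulls, and tropomyosin lies along it and covers the sites where myosin binds. Troponin C binds calcium, troponin I holds the filament off until it does, and troponin T ties the complex to tropomyosin. Several of these proteins change isoform around birth in the rodent heart: slow skeletal troponin I (Tnni1) gives way to cardiac troponin I (Tnni3), and skeletal actin (Acta1) is more abundant in the fetal than in the adult heart, where cardiac actin (Actc1) prevails.

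The letters just upstream of 4 of the genes are shown: Actc1 and Acta1 because the promoters of these close relatives differed in their calls, Tnnc1 because its summits fell in almost the same place in every heart, and Tnnt2 because its local background was among the highest of all promoters. They are RefSeq sequence of GRCm38.p6, written 5′ to 3′ on the strand of the gene and ending before its first annotated base. Capitals mark matches on either strand to the CArG box (CC, then 6 of A or T, then GG, bound by serum response factor), CATTCC (the M-CAT motif, bound by TEAD factors), the GATA motif (AGATAA or TGATAA) and TATAAA (the TATA box). The stretches are chr1:135836084-135836314 (+ strand), chr14:31208062-31208311 (+ strand), chr2:114052876-114053125 (- strand) and chr8:123894776-123895025 (- strand).
Tnnt2: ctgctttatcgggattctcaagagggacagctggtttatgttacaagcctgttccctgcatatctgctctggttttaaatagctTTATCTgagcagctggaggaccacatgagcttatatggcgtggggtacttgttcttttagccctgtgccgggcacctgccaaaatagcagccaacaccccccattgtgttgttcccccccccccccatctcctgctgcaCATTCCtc
Tnnc1: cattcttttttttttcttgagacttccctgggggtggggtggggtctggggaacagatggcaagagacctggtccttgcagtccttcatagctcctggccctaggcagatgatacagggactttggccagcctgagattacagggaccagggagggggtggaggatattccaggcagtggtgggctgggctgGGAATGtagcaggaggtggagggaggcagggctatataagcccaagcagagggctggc
Actc1: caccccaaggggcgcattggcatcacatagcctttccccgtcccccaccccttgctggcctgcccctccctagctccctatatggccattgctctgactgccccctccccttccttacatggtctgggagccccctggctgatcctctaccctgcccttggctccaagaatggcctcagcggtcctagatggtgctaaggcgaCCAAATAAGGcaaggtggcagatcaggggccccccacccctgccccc
Acta1: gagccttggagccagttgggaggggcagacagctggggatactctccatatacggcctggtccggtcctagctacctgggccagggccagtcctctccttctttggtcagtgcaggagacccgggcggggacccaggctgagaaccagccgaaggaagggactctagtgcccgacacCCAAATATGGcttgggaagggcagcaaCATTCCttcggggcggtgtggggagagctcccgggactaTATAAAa

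In the 250 bases before the start, a CArG box was present in 2 of the 8 genes, both actins, and in 1.39% of 17492 protein-coding promoters. It lay at -47 to -38 in Actc1 and at -73 to -64 in Acta1. CATTCC was present in Tnnt2, Tnnc1, Tpm1 and Acta1 (11.6% of promoters), a GATA motif in Tnnt2 (15%) and TATAAA in Acta1 (12.4%). The nuclear receptor motif AGGTCA (12.6% of promoters), its direct repeat DR1 with up to 2 mismatches (2.83%) and the MEF2 site (0.492%) were present in 0 of the 8. These are matches of letters in a single window on both strands, not sites of binding.

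The lists held 27142 to 38809 peaks, with more in each WT heart than in either edKO heart. Among the 10000 strongest peaks, the median fold over local background was 10.8 and 11.5 for WT and 10.2 and 7.61 for edKO, so edKO 2 was the least enriched library. Its part, and that of depth, in the calls was not tested. Promoters of cardiomyocyte markers were called in 7 of 7 with an entry in every library, and those of skeletal muscle, liver and neural markers in 0 of 3 each. Of endothelial markers 1 of 3 and of smooth muscle markers 1 of 2 were called in each library, and of 3 fibroblast markers 1 and 2 were called in WT and 1 and 0 in edKO.

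The promoters of 7 of the 8 genes were called open in all 4 hearts, against 47.6% of 17274 protein-coding genes. A promoter here spans the 250 bases before to 50 bases after a RefSeq start, and the exception was Acta1. Strength is given as the authors' −log10 p of the summit, which grows with depth and so ranks peaks within a library. In what follows, values of a group are given with replicate 1 first, and runs of 4 values are in the order WT 1, WT 2, edKO 1, edKO 2. Tnni3, Actc1, Tpm1 and Tnnt2 were above the median of all called promoters in every library. Tnnc1, Tpm2 and Tnni1 were below it in each library. That median was 40.4 and 42.1 for WT and 28.9 and 20.3 for edKO.

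**Figure D1:**
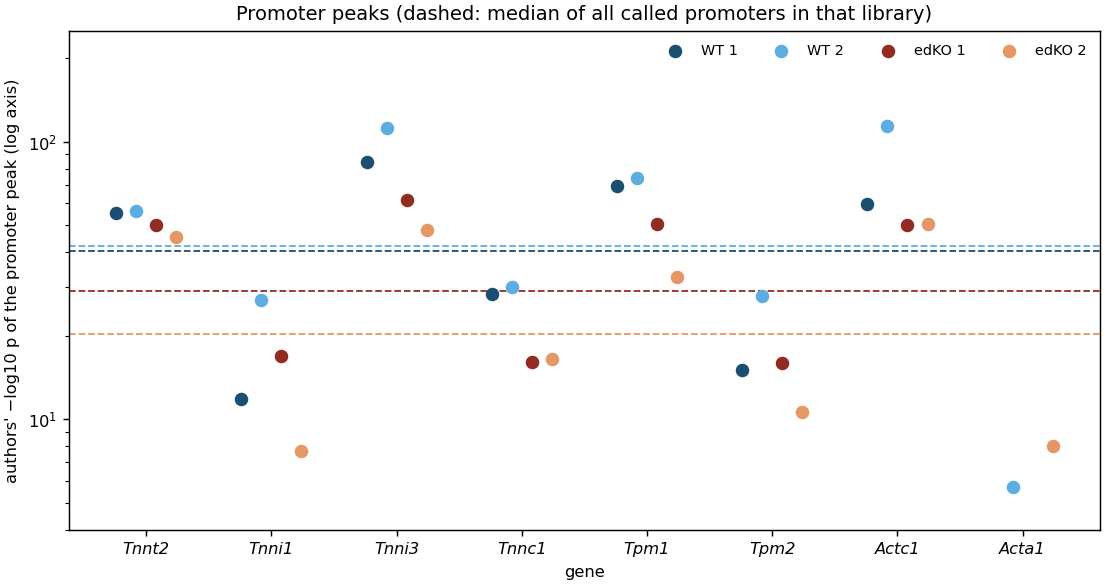
The authors' −log10 p (log axis) of the promoter peak of each gene, 1 point per library, with a dashed line at the median of all called promoters of that library. Tnnt2, Tnni3, Tpm1 and Actc1 lie above the line of their own library in all 4 hearts, and Acta1 has points for WT 2 and edKO 2 alone.

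Tnnt2 encodes cardiac troponin T (chr1:135836315-135852268). Its promoter region, chr1:135835836-135836563, had −log10 p of 55.2 and 56.4 in the WT hearts and 50.3 and 45.4 in the edKO hearts. The 4 values were close, although the edKO medians over all promoters were lower, and the edKO hearts placed this promoter at the 70.7 and 80.1 percentile of their called promoters against 62.4 and 61.3 for WT. The pileup, the number of sequenced tags stacked at the summit as recovered from the authors' fold and −log10 p, was 125 and 127 in the WT hearts and 91 and 90 in the edKO hearts. Past the end of Tnnt2, the strongest other region (chr1:135861871-135862772) had −log10 p of 18.2 and 23.1 in the WT hearts and 28.7 and 21.4 in the edKO hearts, with the groups overlapping. A further one, chr1:135854825-135855767, was called in WT 2 (5.88), edKO 1 (9.54) and edKO 2 (6.06), and was the only region of the 62 found in both edKO hearts and 1 WT heart.

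Tnni3 encodes cardiac troponin I, the adult inhibitory subunit (chr7:4518305-4522718). Its promoter region, chr7:4522273-4523000, reached 84.7 and 112 in the WT hearts and 61.8 and 48 in the edKO hearts. Both WT values were above both edKO values, as were the library medians, and as percentiles of called promoters (78.3, 85.6, 78.1 and 82.1) the groups overlapped. Inside the gene, chr7:4521266-4521884 was called in all hearts, with 12.5 and 10.5 in the WT hearts and 9.71 and 11.5 in the edKO hearts. These values overlapped between the groups, while the pileup was 58 and 56 in the WT hearts and 36 and 42 in the edKO hearts. The strongest other region apart from promoters of neighbours lay downstream, within Tnnt1 (chr7:4509938-4510343), with 31.7 and 34.8 in the WT hearts and 17.4 and 15.1 in the edKO hearts.

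Tnni1 encodes slow skeletal troponin I, the fetal form (chr1:135783033-135810989). Its promoter region at the start with a promoter entry, chr1:135799200-135799564, had −log10 p of 11.8 and 26.8 in the WT hearts and 16.9 and 7.71 in the edKO hearts. These values overlapped between the groups, and none was above the 34.4 percentile of called promoters. The strongest region of Tnni1 lay inside the gene, 594 to 1556 bp from that start (chr1:135800015-135800977), with 88 and 94 in the WT hearts and 65.9 and 49.9 in the edKO hearts. Its pileup was 154, 166, 102 and 92, against 54, 85, 47 and 35 at the promoter. In each of the 4 hearts the inner site was the higher of the pair.

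Tnnc1 encodes troponin C, the calcium sensor (chr14:31208312-31211729). Its promoter region, chr14:31208106-31208432, had −log10 p of 28.3 and 30 in the WT hearts and 16.1 and 16.5 in the edKO hearts. As percentiles of called promoters (36.9, 38, 28.5 and 41) the groups overlapped. The summits lay within 7 bp of each other, at -69, -71, -64 and -71 from the start, close to the CATTCC match at -58 to -53 in the sequence above. As in Tnni1, a stronger region followed inside the gene, 767 to 1277 bp from the start (chr14:31209079-31209589), with 39.7 and 60.2 in the WT hearts and 26.8 and 30.8 in the edKO hearts.

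Tpm1 encodes alpha tropomyosin, the main tropomyosin of the heart (chr9:67022590-67049672), and Tpm2 beta tropomyosin (chr4:43513726-43523583). The Tpm1 promoter region, chr9:67049060-67049831, had −log10 p of 69.1 and 73.8 in the WT hearts and 50.4 and 32.5 in the edKO hearts. The Tpm2 promoter region, chr4:43523337-43523791, had 15 and 27.8 in the WT hearts and 16 and 10.6 in the edKO hearts. The groups overlapped at Tpm2 but not at Tpm1, where the percentiles among called promoters were nonetheless alike (70.7, 71.3, 70.7 and 68.6). Inside Tpm1 a further strong region (chr9:67043541-67044182), 5031 to 5672 bp from the start, had 39.5 and 47.7 in the WT hearts and 48 and 31.4 in the edKO hearts, with the groups overlapping. The strongest other region of the Tpm2 window apart from promoters of neighbours (chr4:43499481-43499950), downstream and within Arhgef39, had 12.7 and 18.1 in the WT hearts and 6.94 and 8.98 in the edKO hearts. By −log10 p the groups did not overlap here, but as percentiles within their lists (52.5, 64.3, 24.3 and 53.3) they did. Just upstream of Tpm2, chr4:43524019-43524316 was called in edKO 2 alone, at 11.3.

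The actin genes were furthest apart. Actc1, the cardiac alpha actin (chr2:114047282-114052875), had a promoter region at chr2:114052649-114053276 with −log10 p of 59.4 and 114 in the WT hearts and 50.1 and 50.5 in the edKO hearts, and a pileup of 113, 193, 80 and 83. As percentiles of called promoters (65.2, 86.4, 70.5 and 83.9) the groups overlapped. Acta1, the skeletal alpha actin (chr8:123891758-123894775), had a promoter region at chr8:123894801-123895072 that was called in WT 2 (5.7) and edKO 2 (8), with a pileup of 12 and 16. It was missed in WT 1 and edKO 1, so its call did not follow genotype. In WT 2 its summit lay at -69, within the CArG match at -73 to -64, and in edKO 2 at -208. The window of Acta1 held 3 regions, and the other two were each called in 1 library: chr8:123903791-123903990, upstream and within Nup133, in edKO 2 (5.53) and chr8:123883125-123883324, downstream, in WT 2 (3.96).

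Upstream of Actc1 a pair of regions that overlap the lncRNA gene C130080G10Rik was called in all 4 hearts. The nearer, -1614 to -1218 bp from the start (chr2:114054093-114054489), had −log10 p of 24 and 32.2 in the WT hearts and 9.57 and 12.3 in the edKO hearts, with summits at -1471, -1469, -1469 and -1465. The farther, -5008 to -4387 bp from the start (chr2:114057262-114057883), had 33.5 and 58 in the WT hearts and 15.3 and 12 in the edKO hearts, and a pileup of 78, 124, 37 and 34. In both, each WT value was above each edKO value. As percentiles within their lists the groups were apart too. These were 71.8, 78.2, 43.5 and 65.5 at the nearer region and 79, 88.3, 61.8 and 64.6 at the farther. The share of all regions in this order is not given, so it is not read as particular to these sites. Since −log10 p carries the depth and enrichment of a library, neither measure was tested as a difference between genotypes.

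**Figure D2:**
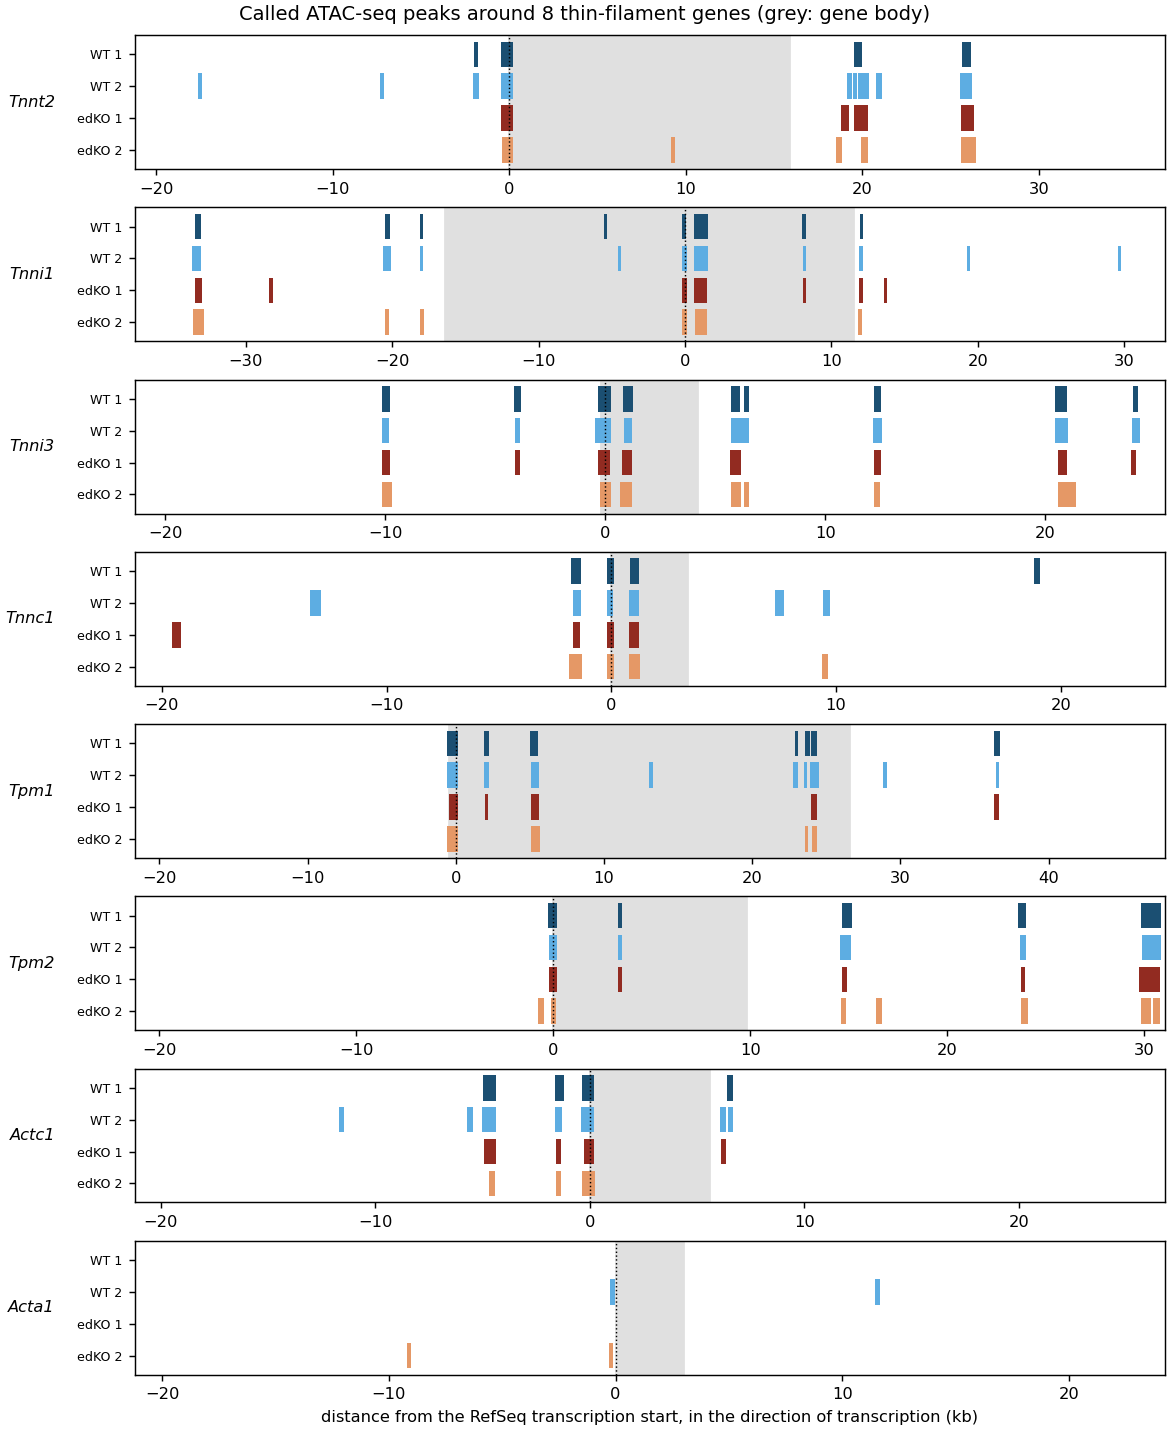
Peaks of each library (coloured bars, 1 row per library) around the 8 genes against the distance from the RefSeq transcription start in kb, in the direction of transcription, with gene bodies in grey. Bars stand at 0 in all 4 rows for every gene except Acta1, and 11 of the 20 regions called in a single library are those of WT 2.

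Calls were compared next, to ask which regions around these genes the edKO hearts lacked or gained. Regions called in all 4 hearts made up 26 of the 62 (41.9%), against 31.2% of all merged regions. By place, these were 7 of 8 promoters, 5 of 14 regions in gene bodies, 5 of 18 upstream and 9 of 22 downstream. Promoters of neighbouring genes lay at 9 of the 62 regions, 7 of them called in all 4 hearts. The share over all regions was not split by place, so 41.9% is not set against regions of like place. Where peaks had to cover at least 50% of a merged region, 20 of the 62 (32.3%) were called in all 4 hearts. The share over all regions under that rule is not given. Of the 38 regions that the WT hearts shared, 3 (7.89%) were WT-only, that is, missing from both edKO lists, against 19.4% over all regions. Of the 27 that the edKO hearts shared, 0 were edKO-only, against 1.35% over all regions, and a count of 0 allows a share of up to 11.1% (counting error only). The WT-only share moved with the setting. It was 20.7% (6 of 29) with a −log10 p minimum of 10 and 3.12% (1 of 32) with lists of equal length. The share over all regions at these settings is not given.

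The WT-only regions lay upstream of Tnnt2, in Tpm1 and past the end of Actc1. The one at Tnnt2, chr1:135834287-135834600, was -2047 to -1734 bp from the start, with −log10 p of 6.1 and 8.18. The one in Tpm1, chr9:67026137-67026455, was 22758 to 23076 bp from the start, with 4.72 and 4.56. The lists end at a −log10 p of about 3, so both were weak. The one past the end of Actc1, chr2:114046185-114046485, was the strongest, with 14.2 and 11.5 and a pileup of 33 in each WT heart.

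The Actc1 site had a close neighbour. Only 46 bp from it lay a second region, chr2:114046532-114046816, called in WT 2 (15.3) and edKO 1 (10.6). So 1 edKO heart had open chromatin called beside the region missing from its list. Summits of the first region were at 6525 and 6528 bp from the start, and those of the second at 6162 and 6193 bp.

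These counts changed with list length. Leaving out a heart drops a condition from each definition, so the counts can then only stay or rise. There were 14 WT-only regions without WT 1, 5 without WT 2, 9 without edKO 1 and 6 without edKO 2. The edKO-only count was 0 without WT 1, 1 without WT 2, 4 without edKO 1 and 3 without edKO 2. With every list shortened to the length of the shortest, 1 region was WT-only and 1 edKO-only.

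Regions missed in 1 edKO heart were more numerous than WT-only ones around these genes. The same held over all regions, with 4631 missing from edKO 2 alone and 1448 from edKO 1 alone, against 5440 WT-only. Of the 38 shared by the WT hearts, 6 (15.8%) were missing from edKO 2 alone, against 16.5% over all regions, and 3 (7.89%) from edKO 1 alone, against 5.16%. Those missing from edKO 2 included a region inside Tpm1, chr9:67046969-67047313, with its summit at the same base, 2093 bp from the start, in the other 3 hearts. There the −log10 p was 21.8 and 18.5 for WT and 7.72 for edKO 1, and the pileup 71, 71 and 33. The others were 1 each inside Tnni1 and Tpm2, 1 past the end of Tpm1, and 2 in the Tnni3 window. Those missing from edKO 1 were 2 upstream of Tnni1 and 1 inside Tpm1. None of these 9 was at a promoter of the 8 genes.

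The number of regions called in the windows was 40 and 53 for WT and 37 and 36 for edKO. The edKO hearts were both below the WT hearts, at 36.5 ± 0.707 (SD, n = 2) against 46.5 ± 9.19 (SD, n = 2), a ratio of 0.785. A two-sided exact permutation test gave p = 0.333, and no lower p is possible in a design of this size. Over all merged regions the ratio was 0.728. With lists of equal length it was 1 around the 8 genes, from 32 and 41 regions for WT and 37 and 36 for edKO. Such lists hold the same number of peaks by construction, so a ratio near 1 does not set these genes apart. The ratio over all regions at that length is not given.

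By gene, the WT and edKO counts were apart in Tnni1 (8 and 10 against 7 and 6) and Tpm1 (7 and 9 against 5 and 4). They overlapped or met in Tnnt2 (4 and 8 against 4 and 5), Tnni3 (8 and 8 against 8 and 6), Tnnc1 (4 and 6 against 4 and 4), Tpm2 (5 and 5 against 5 and 6), Actc1 (4 and 7 against 4 and 3) and Acta1 (0 and 2 against 0 and 2). Over all merged regions the calls were also apart (34488 and 37986 against 26493 and 26262). The share of all gene windows with counts apart is not given. Tnni3 had the steadiest window, with 6 of 8 regions called in all 4 hearts and the remaining 2 in 3. Those 6 included the promoters of its neighbours Tnnt1, Ppp1r12c and Dnaaf3 and a region within Tnnt1. Of the 20 regions called in a single library, 11 were those of WT 2, 2 of WT 1, 3 of edKO 1 and 4 of edKO 2.

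**Figure D3:**
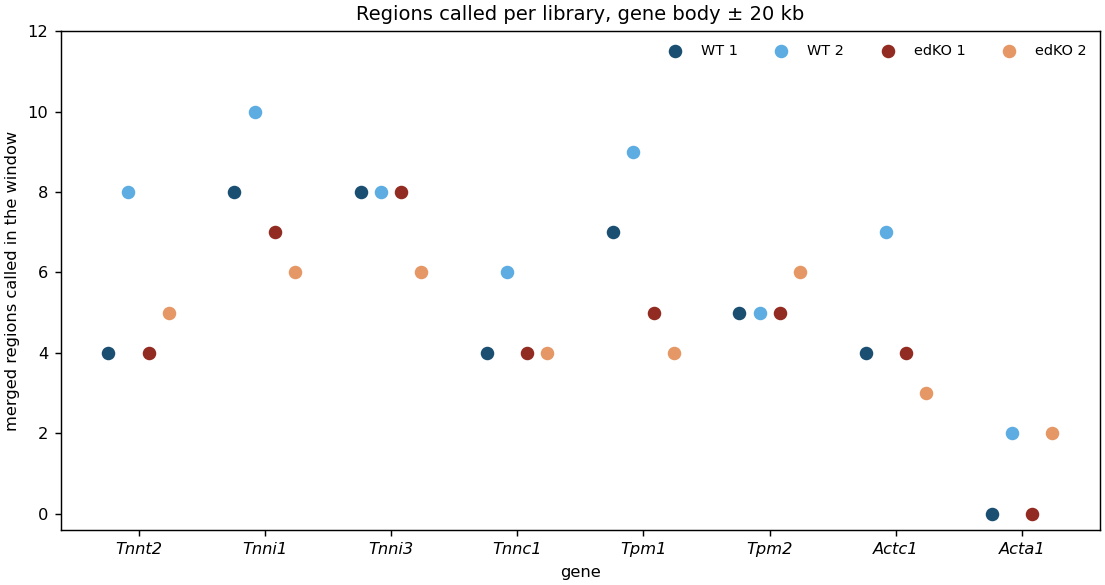
Number of merged regions called in the window of each gene (gene body and 20 kb each side), 1 point per library. WT 2 is alone at the top in Tnnt2, Tnni1, Tnnc1, Tpm1 and Actc1, the WT and edKO points are apart in Tnni1 and Tpm1, and Acta1 has 0 to 2 regions.

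The chromatin around these genes had a high local background. By −log10 p the peaks of the windows were middling, with a median percentile of 58.9 and 51.2 for WT and 61.8 and 62.7 for edKO within their lists. For each peak the local background, the tag density that the peak caller took from around the summit, was recovered. It was expressed as a multiple of the lowest in the same library, which was 1.81 and 1.80 for WT and 1.51 and 1.92 for edKO. Of the peaks in the windows, 21 of 41 in WT 1 (51.2%), 26 of 54 in WT 2 (48.1%), 18 of 37 in edKO 1 (48.6%) and 15 of 38 in edKO 2 (39.5%) were in the top 5% of their whole list by this measure. Peaks of 1 window share their surroundings, and a strong peak can raise its own background, so these are descriptions. No Acta1 peak was among them, and of the Tpm2 window 1 peak of WT 1 was.

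At the Tnnt2 promoter the local background was 11.26, 11.42, 7.42 and 6.55 times the lowest of the library, in the order WT 1, WT 2, edKO 1, edKO 2. These stood at the 99.3, 99.2, 98.6 and 99 percentile of promoter peaks, whose median was 2.67, 2.67, 2.09 and 1.92. Tnnc1 (9.88, 12.20, 7.14 and 7.07), Tnni3 (9.99, 10.65, 6.34 and 5.76) and Tnni1 (9.88, 11.22, 6.77 and 6.27) were alike. Actc1 (8.17, 11.55, 5.45 and 4.64) and Tpm1 (7.75, 8.89, 5.39 and 3.77) were lower than these 4 genes except in WT 2, where Actc1 was above Tnnt2, Tnni3 and Tnni1, and Tpm2 was lower (4.48, 4.60, 3.30 and 3.21). Both WT medians over promoter peaks were above both edKO medians, and these 7 genes followed the same order. The share of all promoters in this order is not given, so it is not read as particular to these genes. Acta1 was the contrast, at 1.37 in WT 2 and 1.48 in edKO 2, below the median over promoter peaks in each.

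The WT-only region upstream of Tnnt2 lay in such surroundings. Its pileup was 44 and 50, above the median of 23 over either WT list, but its fold was only 2.17 and 2.41 over a background of 10.93 and 11.22 times the lowest. A list gives no pileup where nothing was called, so the edKO pileup at this place is not known.

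**Figure D4:**
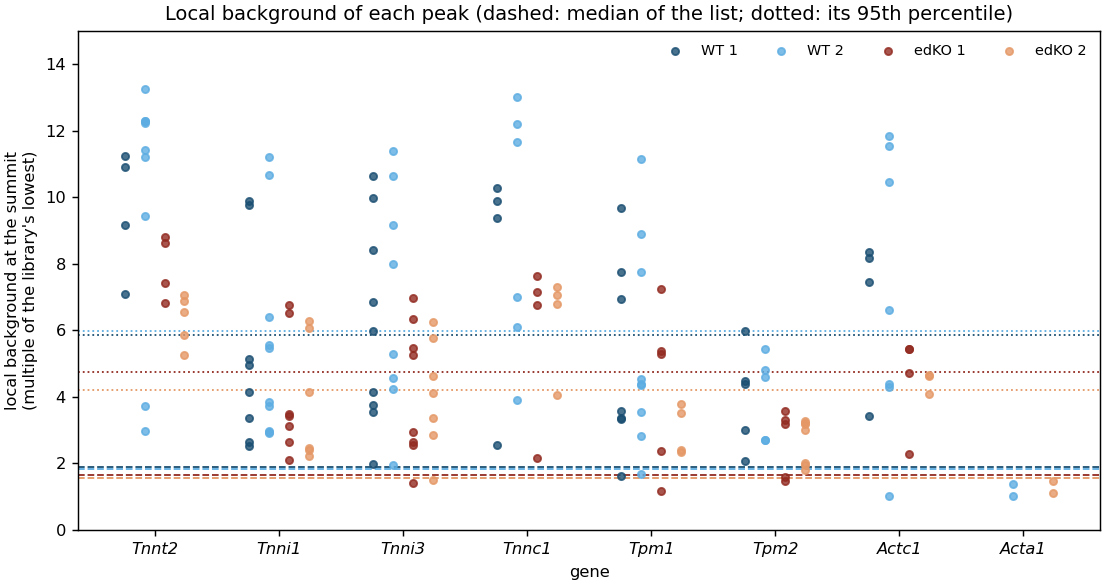
Local background at the summit of every peak in the windows, as a multiple of the lowest in the same library, by gene and library. Dashed lines mark the median of each whole list (1.88, 1.82, 1.64 and 1.57 for WT 1, WT 2, edKO 1 and edKO 2) and dotted lines its 95th percentile (5.86, 5.99, 4.76 and 4.21), which most Tnnt2 and Tnnc1 peaks exceed and no Acta1 peak does.

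Other genes of the thin filament, 26 in all (skeletal, smooth muscle and non-muscle paralogs, filament length regulators and binding proteins), held 144 regions in windows of the same size. Of these, 8 lay in the window of Tnnt1, the neighbour of Tnni3, and were already among the 62, which left 136. Of the 136, 50 (36.8%) were called in all 4 hearts, against 31.2% of all merged regions. Of 83 shared by the WT hearts, 14 (16.9%) were WT-only, against 19.4% over all regions. Of 52 shared by the edKO hearts 0 were edKO-only (up to 5.77%), against 1.35%. Promoter entries existed for 19 of the genes, of which 10 (52.6%) were called in all 4 hearts, against 47.6% of protein-coding genes. Without the Tnnt1 promoter, which is one of the 62 regions, this was 9 of 18. Among the promoters called in all 4 hearts were those of Lmod2, which encodes a leiomodin that lengthens cardiac thin filaments, and the tropomyosin genes Tpm3 and Tpm4. No promoter of these genes was WT-only or edKO-only, and the share over all promoters is not given.

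The 20 kb limit left sites on either side of it. The farthest region inside the Tnni3 window was 19691 bp from the gene, with −log10 p of 8.97 and 8.53 for WT and 5.47 for edKO 1. The nearest outside the Tnnc1 window, 21205 bp away, was WT-only, with 14 and 10.1. With windows of 50 kb on either side 7 regions were WT-only, and in gene bodies alone 1 was.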

How the data were processed

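Peak lists of 4 newborn hearts (2 WT, 2 edKO, grouped by sample title) were analysed as the authors deposited them, 1 per library. CASAVA, bcl2fastq, cutadapt, Bowtie2, SAMtools and MACS2 are named, per the submitters' processing notes, with mm10 and GRCm38 as builds. No source used here gives their versions, the Tn5 shift or the handling of duplicates. The deposited lists hold, per peak, the fold enrichment (a ratio to local background), the −log10 p and −log10 q-value at the summit, its position, and a score that was not used. The −log10 values of the authors scale with depth, so they rank peaks within a list. The total tag count per library is not known.

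Peaks overlapping by at least 1 bp were merged, and a library was called at a region where any of its peaks touched it. Pileup and local background were solved from fold and −log10 p under a Poisson tail with a pseudocount of 1. At least 99.99% of each list gave a whole pileup (tolerance 0.001 on the −log10 scale). Solver and merging were tested on simulated data. Promoters came from a RefSeq table of GRCm38.p6, and exons and introns were not told apart. Calls per library were compared by a two-sided exact permutation test. All regions in the windows were counted. The text names promoters, WT-only and edKO-only regions and the strongest other region of each gene (for Tnni3 and Tpm2, also the strongest apart from promoters of neighbours). Other regions named (the nearer Actc1 upstream region and the one beside the Actc1 WT-only region, those of Tnnt2, Tnni3, Tpm1, Tpm2 and Acta1 not covered by this rule, and those at window edges) were chosen after their values were seen. The genes and lists were chosen with earlier results of these data known. Python 3.11.15, pandas 2.3.3, scipy 1.17.1 and bedtools 2.31.1 were used.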

Additional observations from a re-analysis of the deposited data

How the results depend on the processing

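Each of the 4 counts was recomputed under 11 alternatives: 3 other windows, a stricter threshold, lists of equal length, windows around summits, a minimum of coverage and each heart left out. The ratio of edKO to WT calls was below 1 in 10 of them and was 1 with lists of equal length. Leaving out 1 heart gave 0.689 to 0.912. WT-only regions numbered 1 in gene bodies alone and 7 with windows of 50 kb, or 5.88% and 13% of those shared by the WT hearts. They numbered 6 with a −log10 p minimum of 10 (20.7%), 1 with lists of equal length (3.12%), and 5 to 14 with 1 heart left out. The edKO-only count was 1 with lists of equal length and 0 to 4 with 1 heart left out. Regions called in all 4 hearts numbered 12 in gene bodies alone and 16 with a −log10 p minimum of 10, and 26 to 32 with 1 heart left out. They numbered 20 of the 62 (32.3%) where peaks had to cover at least 50% of a merged region. Gene bodies alone hold fewer regions. Leaving out a heart drops a condition, so the WT-only, edKO-only and all-hearts counts can then only stay or rise. For the other shifts the cause was not tested. No paired analysis was possible because the replicate numbers only name the hearts and the calls come from no fitted model. A missing call shows only that a site stayed below the threshold of its list at the depth of that library, which is not known.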

Other observations

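Promoters of neighbouring genes also lay in the windows, at 9 regions, 7 of them called in all 4 hearts. The window of Tnni3 held the promoter of Tnnt1, which encodes the troponin T of slow skeletal muscle (chr7:4515981-4516845), with −log10 p of 34.3 and 40.9 in the WT hearts and 24.4 and 17.1 in the edKO hearts. It also held those of Ppp1r12c, a myosin phosphatase subunit (34.9, 35.9, 33.9 and 11.9 in the same order), and Dnaaf3, a dynein assembly factor (27.3, 21.4, 20.1 and 7.18). The strongest region of the Tpm2 window was the promoter of Ccdc107 (95.6, 102, 58 and 39.4). The remaining 2 regions were called in fewer hearts. The Sema3g promoter, which belongs to a semaphorin gene, was called in WT 2 (10.9) and edKO 2 (6.12), and the Car9 promoter, that of a carbonic anhydrase induced by low oxygen, in edKO 2 alone (4.81). With these 9 regions left out, 53 remained around the 8 genes, of which 19 were called in all 4 hearts and 3 were WT-only.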
